A study of Mus musculus with 16 samples.

Results

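The H3K4Me1 and H3K27Ac lists of mouse embryonic stem (ES) cells were compared along protein-coding genes, to find the genes that were rich in one mark and poor in the other. The comparison took 8 of the 16 samples of the study, 4 for each mark, and 4 of its 6 lists of enriched regions, on chromosomes 1 to 19. Chromatin immunoprecipitation and sequencing (ChIP-seq) had been made on female (XX) and male (XY) ES cells to ask whether the sexes differ in histone marks. For each mark the labels name 2 XX and 2 XY lines, but the authors deposited 1 list per sex and mark, so there was no replicate and no test between groups. All lines came from F1 hybrids of C57BL/6 and CAST/EiJ mice by the methods (the number in the strain label rises by 1 from sample to sample, up to F16), were at passages 7 to 10 by the labels and 7 to 9 by the methods, carried no treatment, and were grown in serum with leukemia inhibitory factor on a feeder layer of inactivated embryonic fibroblasts from both sexes, removed by depletion ahead of the harvest. Each sex also had 1 IgG and 1 input library. They carry no list of their own.

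A base was counted for a mark where both the XX and the XY list of that mark covered it, and the values in each list are given beside it. For each of 21418 protein-coding genes the share of bases covered was taken in 4 zones: within 2 kb of any annotated transcription start site (TSS), called the start here, the rest of the gene body, and the stretches 2 to 50 kb upstream and downstream. A start or body was called rich at 50% cover or more and poor at 5% or less. The flanks, which are long and mostly bare, were called rich at 20% or more and poor at 2% or less. A zone that was H3K4Me1-rich and H3K27Ac-poor is called H3K4Me1-only below, and the reverse H3K27Ac-only.

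Monomethylation of lysine 4 of histone H3 is laid down by methyltransferases of the Mll family and lies at enhancers, whether active or primed, and on the shoulders of promoters, where the lysine is instead trimethylated at the start itself. Acetylation of lysine 27 is laid down by p300 and CBP at active promoters and enhancers. The same lysine cannot carry trimethylation at the same time, and H3K27Me3, the product of Polycomb repressive complex 2, lies in ES cells over developmental regulators that are silent but can be induced.

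The following stretches of the mm9 genome, 200 bases each, stand for the states described below. CG dinucleotides are in capitals, since the CpG content of the starts turned out to differ between the states. Tnfrsf13c and Hivep2 were the first genes named for the H3K4Me1-only and the H3K27Ac-only starts, Esrrb was the ES cell marker with the largest excess of H3K4Me1 in bases over the 4 zones joined, and Hoxd11, chosen after its values were seen, was H3K4Me1-only in all 4 zones. Each of these is the stretch just before the outermost start, outside any annotated exon or intron: chr15:82054791-82054990 on the minus strand for Tnfrsf13c, with 10 CG and 61% G or C, and on the plus strand chr10:13685985-13686184 for Hivep2 (26 CG, 76.5%), chr12:87701867-87702066 for Esrrb (6 CG, 60%) and chr2:74517249-74517448 for Hoxd11 (3 CG, 52%).
Tnfrsf13c: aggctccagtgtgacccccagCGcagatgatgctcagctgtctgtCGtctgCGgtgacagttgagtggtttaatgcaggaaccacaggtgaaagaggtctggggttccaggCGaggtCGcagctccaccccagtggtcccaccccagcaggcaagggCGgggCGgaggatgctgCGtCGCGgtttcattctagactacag
Hivep2: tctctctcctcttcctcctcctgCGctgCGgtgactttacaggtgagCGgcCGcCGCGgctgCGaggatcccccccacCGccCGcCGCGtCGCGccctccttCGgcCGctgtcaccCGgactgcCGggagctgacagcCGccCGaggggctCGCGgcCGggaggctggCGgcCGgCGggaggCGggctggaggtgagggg
Esrrb: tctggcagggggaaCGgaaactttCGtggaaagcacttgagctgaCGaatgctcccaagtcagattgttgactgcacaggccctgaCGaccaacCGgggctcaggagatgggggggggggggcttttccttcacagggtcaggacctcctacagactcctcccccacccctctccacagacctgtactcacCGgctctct
Hoxd11: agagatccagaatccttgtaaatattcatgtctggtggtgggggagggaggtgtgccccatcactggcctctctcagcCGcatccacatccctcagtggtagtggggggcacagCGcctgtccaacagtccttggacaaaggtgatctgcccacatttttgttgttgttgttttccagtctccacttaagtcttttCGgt

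One more stretch comes from a flank. It is the middle of the longest stretch upstream of Zfp951, the first named H3K27Ac-only gene there, that held H3K27Ac in both lists and H3K4Me1 in neither. Chosen after its values were seen (chr5:105283200-105283399, plus strand, with 3 CG), it lies in no annotated gene, in 5.80 kb of H3K27Ac without H3K4Me1.
Zfp951 upstream: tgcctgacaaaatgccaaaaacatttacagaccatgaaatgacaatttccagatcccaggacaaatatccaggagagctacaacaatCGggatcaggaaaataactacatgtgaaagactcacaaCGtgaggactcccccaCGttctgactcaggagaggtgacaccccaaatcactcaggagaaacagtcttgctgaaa

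The H3K4Me1 lists were the longer ones. They held 38822 regions in XX and 34459 in XY cells and covered 283 and 274 Mb, while the H3K27Ac lists held 27785 and 25301 regions and covered 140.4 and 132 Mb. Between the lists of a mark, 67.0% of the H3K4Me1 bases and 65.8% of the H3K27Ac bases of either list lay in both. These shared bases came to 223 Mb of H3K4Me1 and 108 Mb of H3K27Ac. They overlapped in 85.1 Mb, which was 38.1% of H3K4Me1 but 78.6% of H3K27Ac. A list holds positions and widths without counts, so the depth behind each region is unknown, and the greater length of the H3K4Me1 lists enters every count given here.

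Starts were the zone where the marks were most alike in extent. The mean start was covered to 36.7% by H3K4Me1 (43.9% in the XX list and 42.7% in the XY list) and to 25.7% by H3K27Ac (29.2% and 29.9%), a ratio of 1.43. The mean gene body was covered to 26.2% by H3K4Me1 (32.6% and 30.3%) and to 9.09% by H3K27Ac (12.2% and 11.7%), a ratio of 2.88. Upstream flanks gave 20.6% and 9.87%, a ratio of 2.09, and downstream flanks 21.4% and 10.0%, a ratio of 2.13. The ratio was largest in the gene body in the XX lists (2.68) and in the XY lists (2.58) as well. The marks also nested differently: 75.6% of the H3K27Ac bases at starts carried H3K4Me1, against 89.2% in bodies, 85.6% upstream and 84.6% downstream. When the H3K4Me1 lists were cut to their widest regions until they covered as many bases as the H3K27Ac list of the same sex, the ratio at starts fell below 1, to 0.544, the flank ratios came to 1.01 and 1.03, and the body ratio stayed above, at 1.49.

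The profile around the outermost start placed the marks base by base. H3K27Ac rose to a single peak 200 bp past the start, where 44.2% of the genes carried it (46.6% in the XX and 47.1% in the XY list). H3K4Me1 stood at 35.9% of the genes at the start itself (46.2% in the XX and 43.2% in the XY list). It peaked 1200 bp past the start, at 46.8% (53.0% in each list), so the dip was shallower in each list than in the shared bases. The dip belonged to CpG-rich starts, defined as at least 50% G or C and a CpG ratio of at least 0.6 within 500 bp. At these 9656 starts H3K4Me1 fell to 44.9% at the start and rose to 70.9% at 1400 bp, while H3K27Ac reached 76.3%. At the other 11762 starts H3K4Me1 had no dip, with 28.7% at its peak 200 bp past the start, and H3K27Ac reached 17.8%. A further profile ran over the whole length of 12965 genes of at least 10 kb, start included. At the start H3K27Ac lay above H3K4Me1, at 52.5% against 38.3% of these genes. From 5% of the length on H3K4Me1 was the higher. It ran down from 44.9% there to 18.1% at 75%, and H3K27Ac from 28.9% to 5.95% at 90%.

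**Figure D1:**
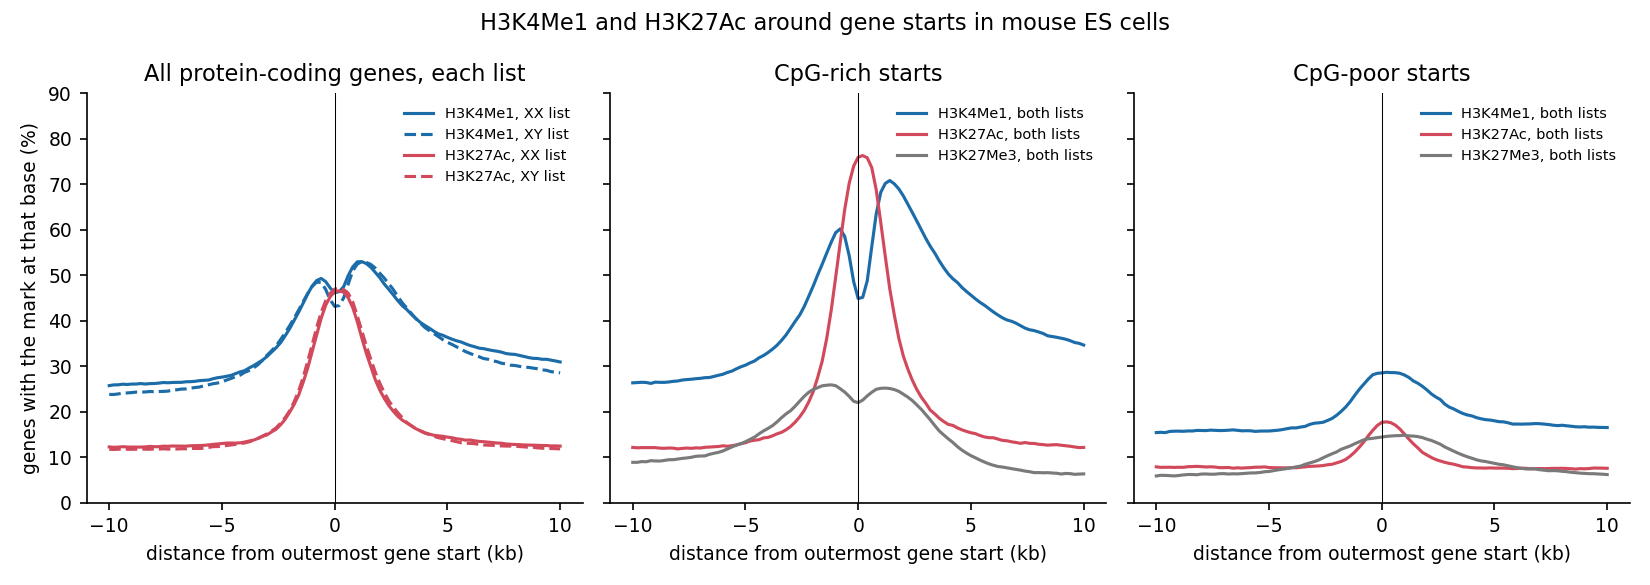
Share of genes (%) with each mark at each distance (kb) from the outermost start, for each XX and XY list over all genes (left) and for bases in both lists at CpG-rich (middle) and CpG-poor starts (right). H3K27Ac has 1 peak at 200 bp, while H3K4Me1 dips to 44.9% at CpG-rich starts and peaks at 70.9% at 1400 bp.

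Of the 21418 starts, 4040 (18.9%) were rich in both marks and 8071 poor in both. H3K4Me1-only starts numbered 1971, which is 9.2% of the starts, and H3K27Ac-only starts 268, which is 1.25%. In bodies the counts were 1306 of 16744 (7.8%) and 15 (0.0896%). Upstream they were 686 (3.2%) and 22 (0.103%), and downstream 711 (3.32%) and 38 (0.177%). Over the 4 zones joined, 192 genes (0.896%) were H3K4Me1-only and 1 (0.00467%) H3K27Ac-only. These shares are the background for every gene group below. Neighbouring genes share flanks, so genes are not independent, and no test was made.

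How firm a call was differed between the directions. Of the 1971 H3K4Me1-only starts, 1357 were called from the XX lists alone and from the XY lists alone as well, and in 614 at least one list had H3K27Ac above 5% of the start. Of the 268 H3K27Ac-only starts, 54 were called in each sex, and 214 had H3K4Me1 above 5% in a list. The latter were therefore mostly starts where the XX and the XY list did not place H3K4Me1 on the same bases. The genes called from the shared bases, from the XX lists alone and from the XY lists alone numbered 752 and 5 in bodies and 315 and 9 upstream. They numbered 343 and 17 downstream, and 54 and 0 over the joined zones. With the H3K4Me1 lists cut to the length of the H3K27Ac lists, the order turned at starts (398 H3K4Me1-only and 2510 H3K27Ac-only), upstream (145 and 539), downstream (171 and 561) and over the joined zones (14 and 139), but not in bodies (479 and 225). The largest H3K4Me1 cover just below the line for a rich start was 49.96% and the smallest above it 50%. The H3K27Ac cover nearest the line for a poor start was 4.82% inside and 5.32% outside.

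**Figure D2:**
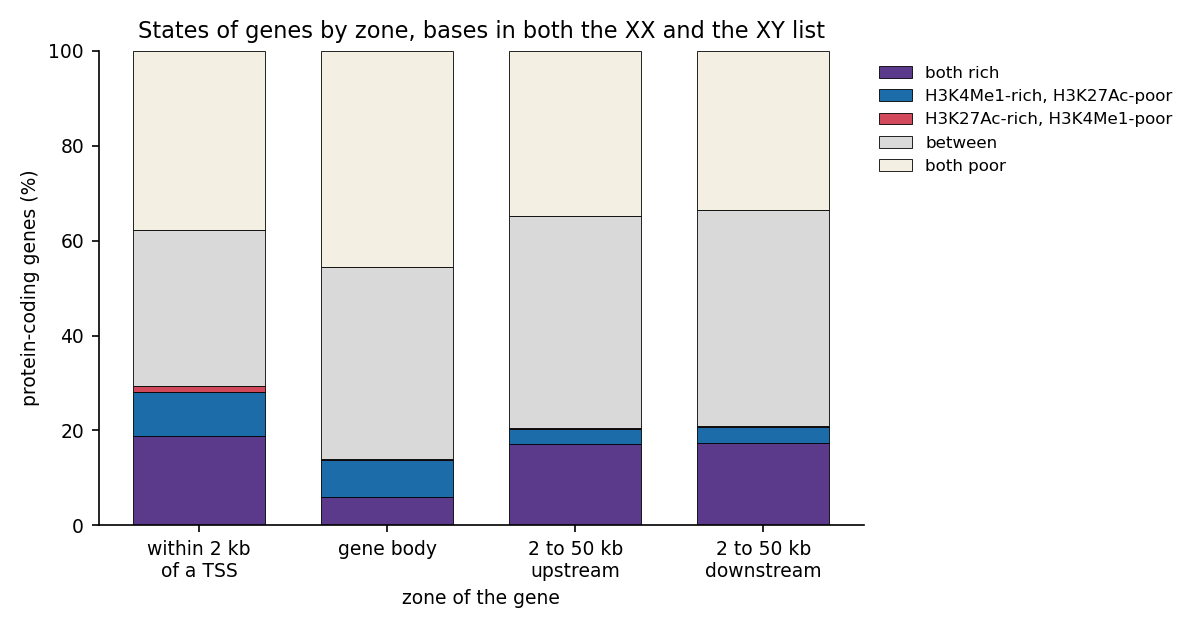
Protein-coding genes (%) by state in each zone, from bases in both the XX and the XY list. H3K4Me1-only genes make up 9.2% of the starts and 7.8% of the bodies, and the H3K27Ac-only band is thickest at starts, at 1.25%.

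Genes of the pluripotent state, which served as the check of the cell type, carried both marks at their starts. Of 12 ES cell markers, 9 were rich in both (75%, against 18.9% of all starts). None was H3K4Me1-only here or in any of the 12 alternatives, though at 9.2% of all starts a list this short would hold few. H3K27Ac covered the whole start in both lists at 10 of them, among them Pou5f1 and Sox2, the core pluripotency factors, Nanog, and the naive marker Zfp42. H3K4Me1 varied more at these starts, with 100% and 89.1% at Pou5f1 in the XX and XY list, 100% and 100% at Nanog, 55.0% and 40.5% at Sox2, and 40.0% and 80.0% at Tdgf1, a co-receptor for Nodal. Esrrb, an orphan nuclear receptor of the naive state, had H3K4Me1 over 61.8% and 70.4% of its starts and H3K27Ac over 49.3% and 49.3%. Its own longest stretch with both marks in both lists ran over 27.8 kb inside the gene. Of 12 fibroblast markers, which would show feeder cells, none was rich in both marks and 3 were H3K4Me1-only (Pdgfrb, Prrx1 and Thy1, with H3K27Me3 over at least 50.3% of the start). H3K27Ac lay in both lists at Lum alone (26.6% and 16.6%). The XY list by itself had it at S100a4 (100%), Twist1 (50%) and Col1a1 (11.7%), and the part of feeder cells in the marks was not tested.

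The other genes that hold or signal the ES cell state kept the same pattern. Of 11 naive pluripotency factors, 10 were rich in both marks (90.9%, against 18.9% of all starts). None was H3K4Me1-only, in a list as short as that of the ES cell markers. Tbx3, a T-box factor of that list, had both marks at the start (H3K4Me1 at 100% in each list, H3K27Ac at 100% and 98.6%) but was H3K4Me1-only upstream, with 72.7% and 45.6% against 5.16% and 0%. Of 17 feedback genes of FGF, BMP and LIF signalling, such as Spry4, Dusp6 and Id1, 13 were rich in both. Of 11 formative and primed genes, 8 were rich in both marks although their median H3K27Me3 cover was 76.2%, against 0% for all genes. Otx2, Fgf5 and Foxd3 had H3K4Me1 over the whole start in each list, with H3K27Ac at 100% of each in the XX list and at 93.9%, 95.1% and 100% in the XY list. The one H3K4Me1-only start of this list was Pou3f1, a POU factor of the epiblast and neural lineage, with H3K4Me1 at 100% in each list, H3K27Ac at 0% in each and H3K27Me3 at 100% in each. Among 17 genes that write or erase H3K4 methylation 8 were rich in both marks (47.1%, against 18.9% of all starts). Among 13 that write, erase or read H3K27 acetylation there were 4 (30.8%). None of either list was H3K4Me1-only or H3K27Ac-only at its start. With 9.2% and 1.25% of all starts so called, lists this short would hold few, so their absence says little about these genes.

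The 5 genes named for the H3K4Me1-only starts were covered in full by H3K4Me1 in both lists, with no base of H3K27Ac in either. Many other starts tied with them, and the tie was broken by the difference in bases over the 4 zones joined. They were Tnfrsf13c (chr15:82052174-82054790), the BAFF receptor of B cells, Igsf21 (chr4:139582761-139802699), an immunoglobulin-domain synaptic protein, Sema3f (chr9:107583833-107612806), a secreted axon guidance cue, Ngfr (chr11:95430132-95449049), the low-affinity neurotrophin receptor, and Cyp2w1 (chr5:139828571-139832987), a cytochrome P450 enzyme. None belongs to the ES cell marker or pluripotency lists. H3K27Me3, which the calls did not use, covered 100% of the first 4 starts in each list, and 95.7% and 100% of that of Cyp2w1. The Tnfrsf13c stretch printed above is thus one with H3K4Me1 and H3K27Me3 at its gene's start but no H3K27Ac.

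The same overlap held for most of the class. H3K27Me3 covered 61.5% of the mean H3K4Me1-only start, against 15.9% over all genes and 8.46% at starts rich in both marks. It was rich at 1244 of the 1971 (63.1%), against 15.0% of all starts. Under the alternatives the share lay between 36.7% and 70.7%. The former came with the widest 50% of the regions of each list. The latter came where H3K27Ac had to be poor with the bases of both lists joined. These alternatives for H3K27Me3 were chosen after seeing the data. A further 532 of the 1971 had H3K27Me3 on at most 5% of the start. These were unlike the others in sequence, since 17.1% of them were CpG-rich against 53.9% of the 1244. Both groups had little H3K27Ac in the body (3.25% and 4.50% on average, against 9.09% for all genes). Kcnj14 and Il17c were examples of the second group, with H3K4Me1 at 100% and H3K27Ac and H3K27Me3 at 0% in both lists.

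Developmental transcription factors held the largest shares. Of 40 Hox genes, the homeobox genes that pattern the body axis, 24 had an H3K4Me1-only start (60%, against 9.2% of all genes), and 22 of these were also called in each sex. From the shared bases no Hox start was rich in both marks. H3K27Me3 covered all 40 starts in full in both lists. H3K27Ac was at 0% in both lists at most of them. Exceptions were Hoxc13 and Hoxc12, with H3K27Ac at 83.3% and 70.3% in the XX list and 0% in the XY list. Both had H3K4Me1 at 100% in each list, so the XX list alone was rich in both marks there. Among Hoxa starts the highest H3K27Ac cover was 49.7% in the XX list and 57.6% in the XY list. Starts that were not H3K4Me1-only differed in H3K4Me1: Hoxd8 had it at 66.1% in the XX list and 0% in the XY list, Hoxa4 at 0% and 93.8%, and Hoxd1 at 0% in both. Cluster by cluster, 6 of 12 Hoxa, 7 of 10 Hoxb, 6 of 9 Hoxc and 5 of 9 Hoxd starts were H3K4Me1-only. With the H3K4Me1 lists cut to the length of the H3K27Ac lists the Hox count fell from 24 to 6.

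The Hox clusters stood out over the joined zones too, where the lines were those of the flanks (20% and 2%) and not those of the starts. There 34 of 40 were H3K4Me1-only, against 0.896% of all genes, but 23 of these were also called in each sex. Upstream 32 were called, 26 of them in each sex, and downstream 25, all of them in each sex. These genes lie side by side and share their flanks. The 34 came from 11 of 12 Hoxa, 10 of 10 Hoxb, 4 of 9 Hoxc and 9 of 9 Hoxd genes. Hoxd8 (chr2:74542672-74545990) led them with H3K4Me1 over 57.6% of the locus in the XX list and 64.0% in the XY list, no H3K27Ac in either, and H3K27Me3 over 100%. Hoxb5 had 52.1% and 78.9%, Hoxa7 49.3% and 62.1%, and Hoxc8 44.6% and 65.7%, with H3K27Ac at 1.27% at most. The Hoxc cluster had the most H3K27Ac, with a median of 6.37% of the locus in XX and 3.17% in XY cells. With the cut H3K4Me1 lists none of the 40 was H3K4Me1-only over the locus. Of the 8 genes that were H3K4Me1-only in all 4 zones, 7 were Hox genes (Hoxd11, Hoxa9, Hoxa11, Hoxb6, Hoxb5, Hoxb4 and Hoxb2). The other was Fev (chr1:74928083-74931993), an ETS factor of serotonin neurons, with H3K4Me1 over 83.5% and 100% of the start, 100% of the body in each list, and no H3K27Ac in any zone of either list.

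Other lineage regulators resembled the Hox genes at the start but not over the locus. Of 16 mesoderm, endoderm and cardiac factors, 10 had an H3K4Me1-only start, and 7 of these were called in each sex. The median of this list was 64.7% for H3K4Me1 and 0% for H3K27Ac, against 25.2% and 0% for all genes. Hand1 (chr11:57642207-57646320), a heart and trophoblast factor, and Gata6 had H3K4Me1 at 100%, H3K27Ac at 0% and H3K27Me3 at 100% in each list. Eomes, which specifies mesendoderm, had H3K4Me1 at 100% in each, and H3K27Ac at 21.5% in XX and 0% in XY cells. Foxa2, an endoderm factor, had the lists disagree, with H3K27Ac at 0% in XX and 100% in XY cells under H3K4Me1 of 100% and 81.8%. T (Brachyury, chr17:8627288-8635361), the primitive streak factor, was the single one called over the locus, at 38.4% and 39.3% H3K4Me1 against 1.88% and 0% H3K27Ac.

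Of 13 neural transcription factors, 7 had an H3K4Me1-only start, 5 of them in each sex. Neurod1, a bHLH factor of neurons, had H3K4Me1 at 100% and H3K27Ac at 0% in each list, Neurog2 98.6% and 100% with none, and Lhx2, a LIM homeobox factor of forebrain, 96.3% and 87.2% with none. Gbx2, a homeobox factor of the midbrain-hindbrain boundary, had H3K4Me1 at 100% in each and H3K27Ac at 0% in XX and 18.4% in XY cells. Olig2, a bHLH factor of oligodendrocytes, differed from the others in being rich in both marks, with H3K27Ac at 59.9% and 69.9%. H3K27Me3 covered at least 86.0% of every start of this list in each sex. The list held 4 starts that were poor in both marks.

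Genes for proteins of differentiated cells followed at lower shares. Of 94 potassium channel genes 26 (27.7%) had an H3K4Me1-only start, 22 of them in each sex, with Kcnj4, Kcnh3 and Kcnh4 at 100% H3K4Me1, 0% H3K27Ac and 100% H3K27Me3. Of 57 cadherins and protocadherins there were 10 (17.5%), among them Pcdh8, Cdh11 and Cdh6. Cdh3, a placental cadherin, was called from the shared bases with H3K27Ac at 100% in XX and 0% in XY cells. Solute carriers gave 44 of 343 (12.8%) and interleukins and their receptors 10 of 80 (12.5%), both nearer the 9.2% of all starts. Cytochrome P450 genes, at 7 of 98 (7.14%), collagens, at 2 of 41 (4.88%), keratins, at 3 of 51 (5.88%), and regulators of small GTPases, at 3 of 59 (5.08%), lay below it. The retinoic acid hydroxylases Cyp26a1 and Cyp26c1 were among the P450 starts, with H3K4Me1 at 100% in each list and at 91.8% and 81.8%, no H3K27Ac, and H3K27Me3 at 100%.

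**Figure D3:**
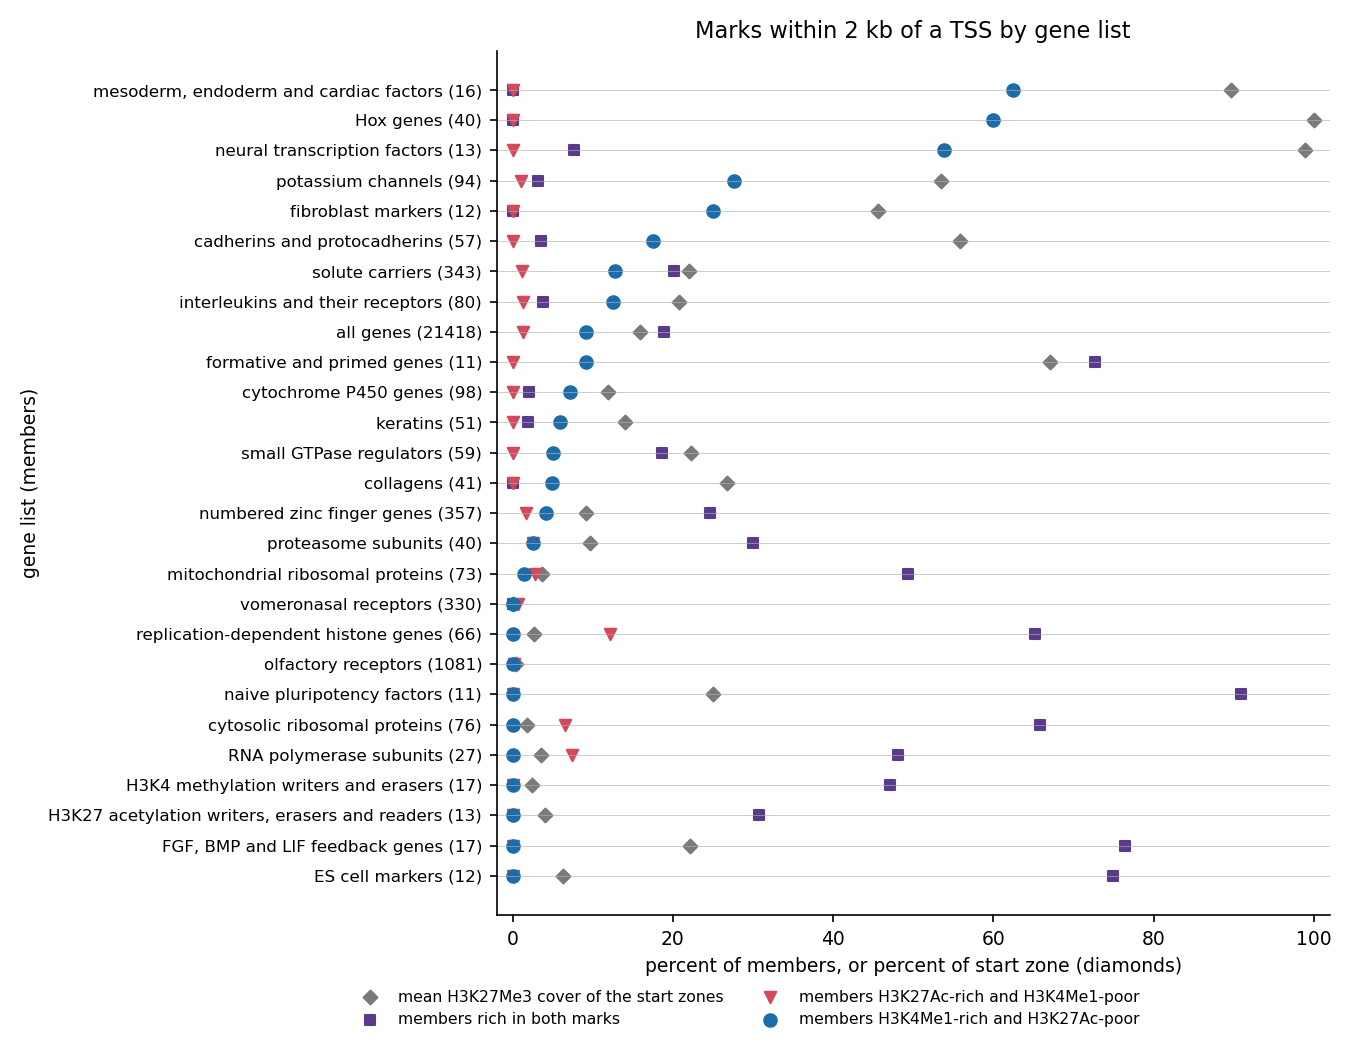
For each gene list, the share of members (%) whose start was H3K4Me1-only (circles), H3K27Ac-only (triangles) or rich in both marks (squares), with the mean share of the start covered by H3K27Me3 (diamonds), from bases in both lists. Mesoderm, neural and Hox lists lie at 53.8% to 62.5% H3K4Me1-only with mean H3K27Me3 cover of 89.7% to 100%, naive factors at 90.9% rich in both.

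H3K27Ac-only starts were mostly CpG-rich, as were starts rich in both marks. Of the 268, 77.6% were, against 71.2% of the starts rich in both marks, 42.5% of the H3K4Me1-only starts and 45.1% of all starts. H3K27Me3 covered 6.13% of the mean start. In the window from 250 bp before to 50 bp after the outermost start, on both strands, the ETS motif CCGGAAG was found at 22.8% of the H3K27Ac-only starts and 19.1% of those rich in both, but at 4.01% of the H3K4Me1-only starts (10.9% of all). The GC box GGGCGG was found at 62.7%, 63.5% and 55.0% of the same groups (43.7% of all), and the TATA box TATAAA at 6.34%, 7.55% and 9.79% (13.5% of all). Of the 54 H3K27Ac-only starts called in each sex, 72.2% were CpG-rich, near the starts rich in both marks. The ETS motif was found at 20.4% of these 54, the GC box at 55.6% and the TATA box at 3.70%. A match gives the letters in the window and not a bound site.

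Hivep2 (chr10:13686185-13871182), a large zinc finger factor, was the first gene named for this direction, with H3K27Ac at 95.4% in XX and 100% in XY cells and no H3K4Me1 in either. The stretch before its start, printed above, holds 26 CG in 200 bases. It also carried H3K27Me3, at 49.6% and 65.0%. Naa11 (chr5:97811243-97821349), an acetyltransferase for protein N termini, had H3K27Ac at 100% and 93.7%, Tmem125 (chr4:118213546-118216649), a membrane protein, 87.2% and 100%, and Lamtor3 (chr3:137581490-137591729), a subunit of the Ragulator complex on lysosomes, 92.7% and 82.7%, all with H3K4Me1 at 0%. Mrpl32 (chr13:14702568-14705304), a protein of the mitochondrial ribosome, had 82.6% and 77.6% with H3K4Me1 at 0% and 2.60%. Its neighbour Psma2 (chr13:14705521-14719674), a proteasome subunit read from the opposite strand, starts close by and had H3K27Ac at 88.0% and 83.0% with H3K4Me1 at 0% and 8.02%.

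Housekeeping families supplied several of these calls, but seldom in each sex. Of 66 replication-dependent histone genes 8 (12.1%) had an H3K27Ac-only start, against 1.25% of all starts, and 43 were rich in both marks. None of the 8 was called in each sex. At Hist1h2bf, Hist1h2bg and Hist1h2ae H3K4Me1 covered 100% of the start in the XX list and 0% in the XY list, and at Hist1h3h the reverse, while H3K27Ac covered 100% in each. Each of these starts was thus H3K27Ac-only in one list and rich in both marks in the other. Of 76 cytosolic ribosomal proteins 5 (6.58%) had such a start. Rps12 had H3K4Me1 at 25.4% and 0%, Rpl7 at 0% and 60.5%, and Rps27a at 38.8% and 42.8% on different bases. Of 27 RNA polymerase subunits 2 were called (7.41%), Polr3d and Polr3b, again in neither case in each sex. Other families lay nearer the 1.25% of all starts. Of 73 mitochondrial ribosomal proteins 2 were called (2.74%), 1 of them in each sex, and of 40 proteasome subunits 1 (2.5%), not in each sex.

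In gene bodies H3K4Me1 without H3K27Ac was commoner than the reverse, with 1306 bodies against 15. The 5 named bodies, Cyp2w1, Sema4c (a semaphorin), Gusb (the lysosomal beta-glucuronidase), Acvrl1 (a BMP receptor of endothelium) and Prss57 (a serine protease), were covered to 100% by H3K4Me1 in each list, with H3K27Ac at 4.02% in the XY list of Gusb and 0% otherwise. They were short, with body zones of 1.49 to 8.22 kb. The median gene with such a body was 9.51 kb long, against 23.7 kb for all genes with a body zone. Genes with a body rich in both marks were short as well, at 11.5 kb, while those with a body poor in both had 23.3 kb. H3K27Me3 was rich in 28.0% of these bodies, against 6.19% of all bodies. Start and body were often in different states. Of the H3K4Me1-only bodies, 503 had a start between the states, 378 an H3K4Me1-only start and another 378 a start rich in both marks.

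The last of these groups has, by its definition, H3K27Ac at the start but little in the body, and H3K4Me1 in both. Chosen after their values were seen, Dhx9 (chr1:155302888-155334790), an RNA helicase, had H3K4Me1 over 94.6% and 96.7% of its body and H3K27Ac over 4.65% and 1.97%, with H3K27Ac at 100% of the start in each list. Raly (chr2:154616832-154692997), an RNA-binding protein, had H3K4Me1 over 88.8% and 74.4% of its body without H3K27Ac in either list, against 90.9% and 77.9% H3K27Ac at the start. Gna13, the G protein subunit alpha 13, had 85.5% and 86.6% against 0% and 2.88%. The bodies of Dhx9, Raly and Gna13 held no H3K27Me3 that both lists shared. H3K27Ac-only bodies numbered 15. Crlf2, a cytokine receptor, and Cml5 had H3K27Ac at 100% and H3K4Me1 at 0% in each list, and Zfp936 had 65.5% and 100%, Vmn2r85 50.5% and 64.8%, with no H3K4Me1.

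In the flanks the directions differed in gene neighbourhood. Upstream H3K4Me1-only genes lay in dense surroundings, with a median of 1.86 kb to the next protein-coding gene, against 4.86 kb for all genes. Genes rich in both marks upstream shared this, with a median of 1.4 kb, while genes poor in both had 11.9 kb. The 22 upstream H3K27Ac-only genes, in 18 separate loci, lay far apart, with a median gap of 16 kb. Their starts had a median G or C content of 43.8% and a CpG ratio of 0.181. The values were 58.5% and 0.671 for the H3K4Me1-only genes, and 57.5% and 0.666 for genes rich in both marks upstream. Fam131c (chr4:140924135-140940090) led with H3K4Me1 over 91.7% and 81.9% of its upstream flank. Arf3, a small GTPase of the Golgi, had 75.4% and 75.8%, Hoxd8 65.3% and 80.8%, Map3k6, a kinase, 68.5% and 77.6%, and Pigz, a mannosyltransferase, 60.8% and 59.6%, all without H3K27Ac. H3K27Me3 was rich (20% or more) in 48.3% of the 686 flanks, against 11.8% of all. With other genes left out of the flanks the upstream counts rose to 1507 and 84.

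Downstream the picture was alike. Otub1, a deubiquitinase, had H3K4Me1 over 72.7% and 90.6% of its downstream flank, Chga, the neuroendocrine protein chromogranin A, 77.5% and 80.1%, Pipox, a peroxisomal oxidase, 81.0% and 82.1%, and Farp1, a guanine nucleotide exchange factor, 70.3% and 67.0%, with no H3K27Ac. Chga and Farp1 had no H3K27Me3 there in either list, so that the flanks too held H3K4Me1 with and without H3K27Me3. Of the 711, 52.6% were rich in H3K27Me3, against 12.5% of all.

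Flanks with H3K27Ac alone were few, 22 upstream and 38 downstream. Zfp951 (chr5:105242366-105246371), a zinc finger gene, had H3K27Ac over 43.3% and 44.6% of its upstream flank and no H3K4Me1. It was also the single H3K27Ac-only locus, at 26.5% and 28.2%, but the XX list held H3K4Me1 at 2.35% there, above the line for poor. Olfr902, an olfactory receptor, had 30.4% and 35.0% upstream, Cyp2b23 33.7% and 35.4%, Cyp2c69 25.3% and 30.3%, and Vmn2r84, a vomeronasal receptor, 24.6% and 24.6%. Downstream, Olfr147 had 30.4% and 32.9%, Sis, the intestinal sucrase-isomaltase, 32.9% and 43.3%, Fam107a 30.8% and 27.1%, and Cyp2c69 25.4% and 24.6%. Bicd1, with 48.6% and 43.9%, has a downstream zone of 3.19 kb, since the chromosome ends there. None of these flanks held H3K4Me1 or H3K27Me3 in either list. Of 1081 olfactory receptors 6 were called upstream (0.555%, against 0.103% of all genes) and 12 downstream (1.11%, against 0.177%), and neighbouring receptors share flanks. Of 98 cytochrome P450 genes 2 were called upstream and 1 downstream, and of 330 vomeronasal receptors 1 in each flank. Starts were poor in both marks at 1066 of the 1081 olfactory receptors, 326 of the 330 vomeronasal receptors and 77 of the 98 P450 genes.

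**Figure D4:**
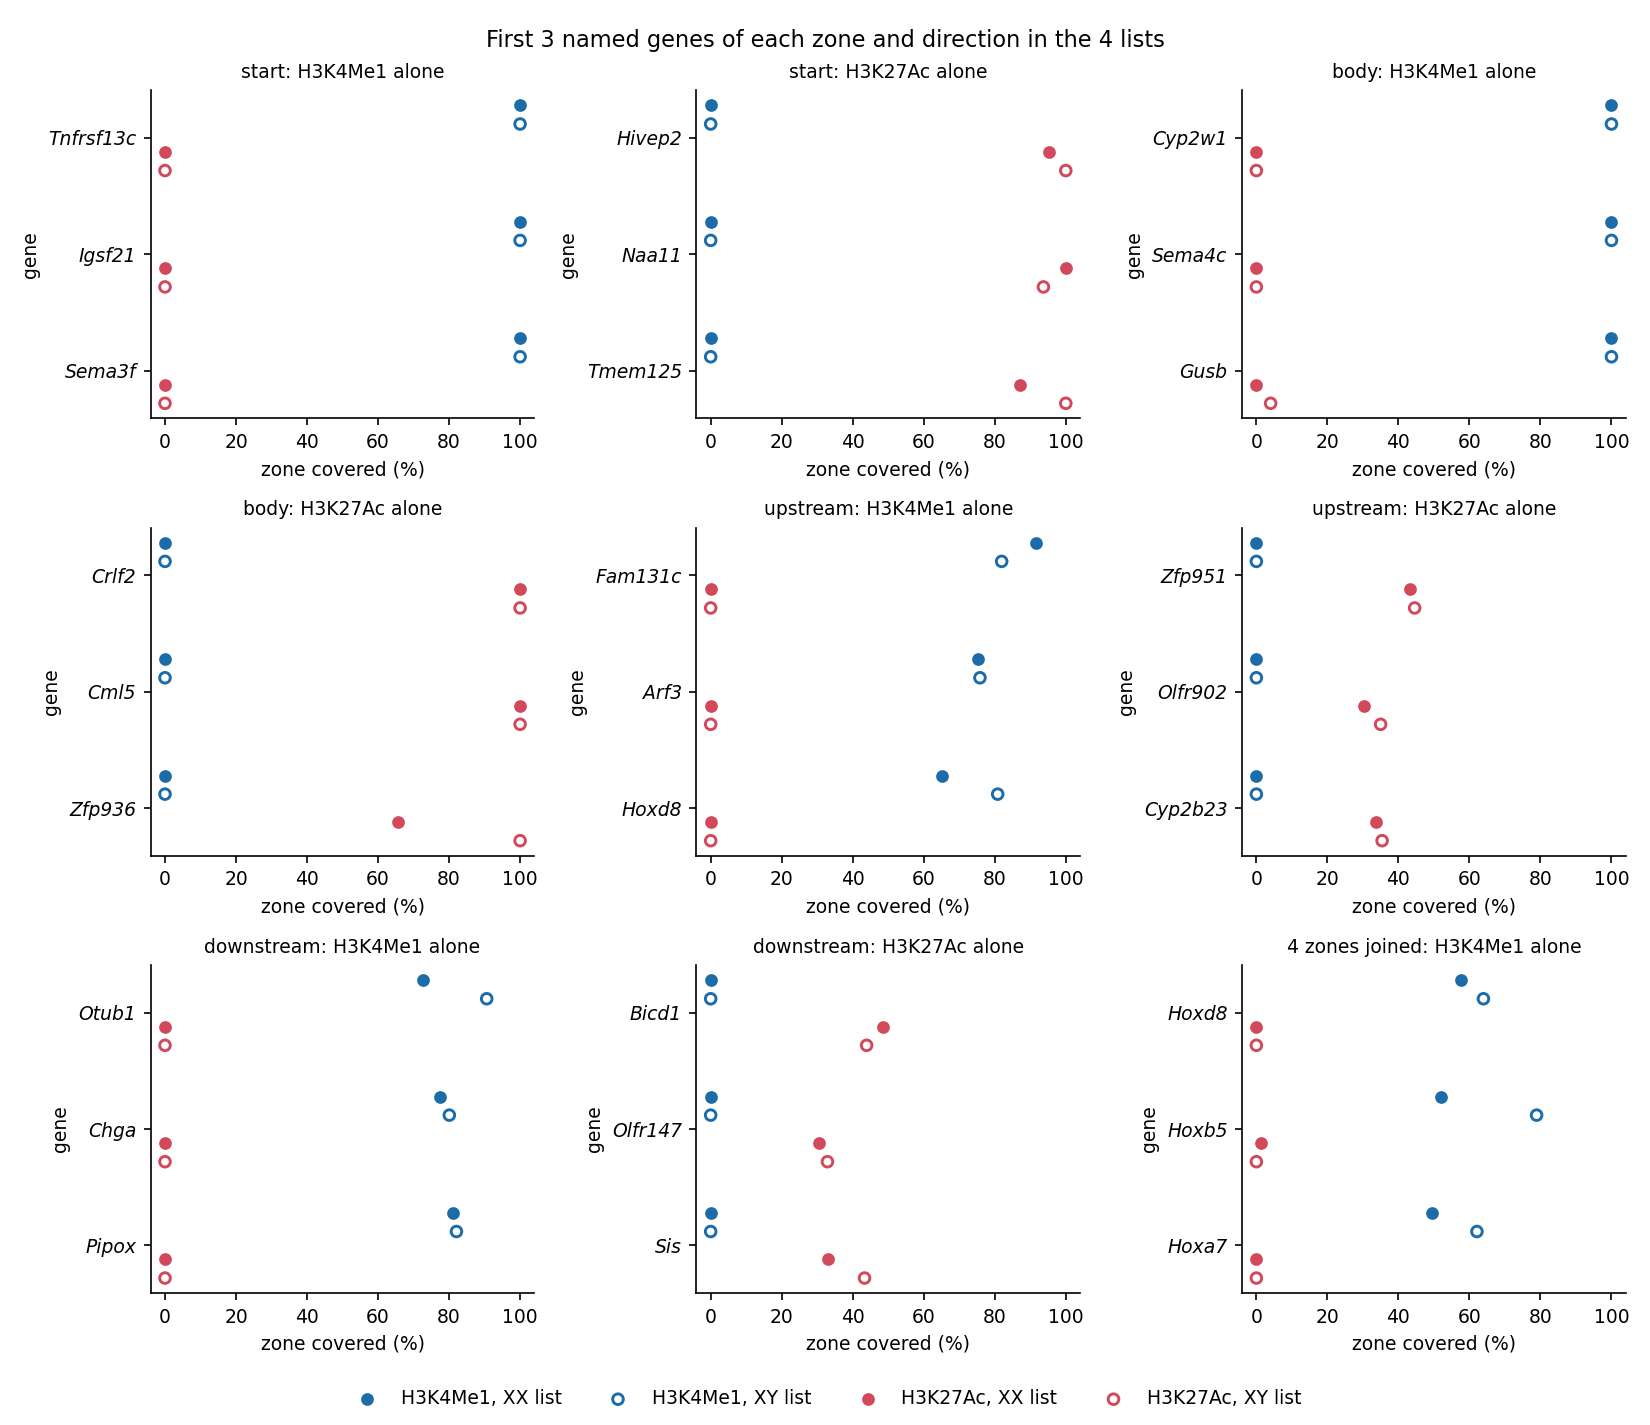
Share of the zone (%) covered by H3K4Me1 (blue) and H3K27Ac (red) in the XX list (filled) and the XY list (open) for the first 3 genes named by size of difference in each zone and direction. The marks lie apart in each list at every gene shown, with the smallest gap in the H3K27Ac-only flanks, where H3K27Ac covers 30.4% to 48.6%.

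The number of genes in each direction moved with the processing. Across 12 alternatives and 5 zones, H3K4Me1-only genes outnumbered H3K27Ac-only genes in 56 of 60 cases. The 4 exceptions all came from the H3K4Me1 lists cut to the bases of H3K27Ac. Within 5 kb of a TSS, in place of 2 kb, 994 and 19 genes were called, and with the outermost TSS alone 482 H3K27Ac-only starts.

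**Figure D5:**
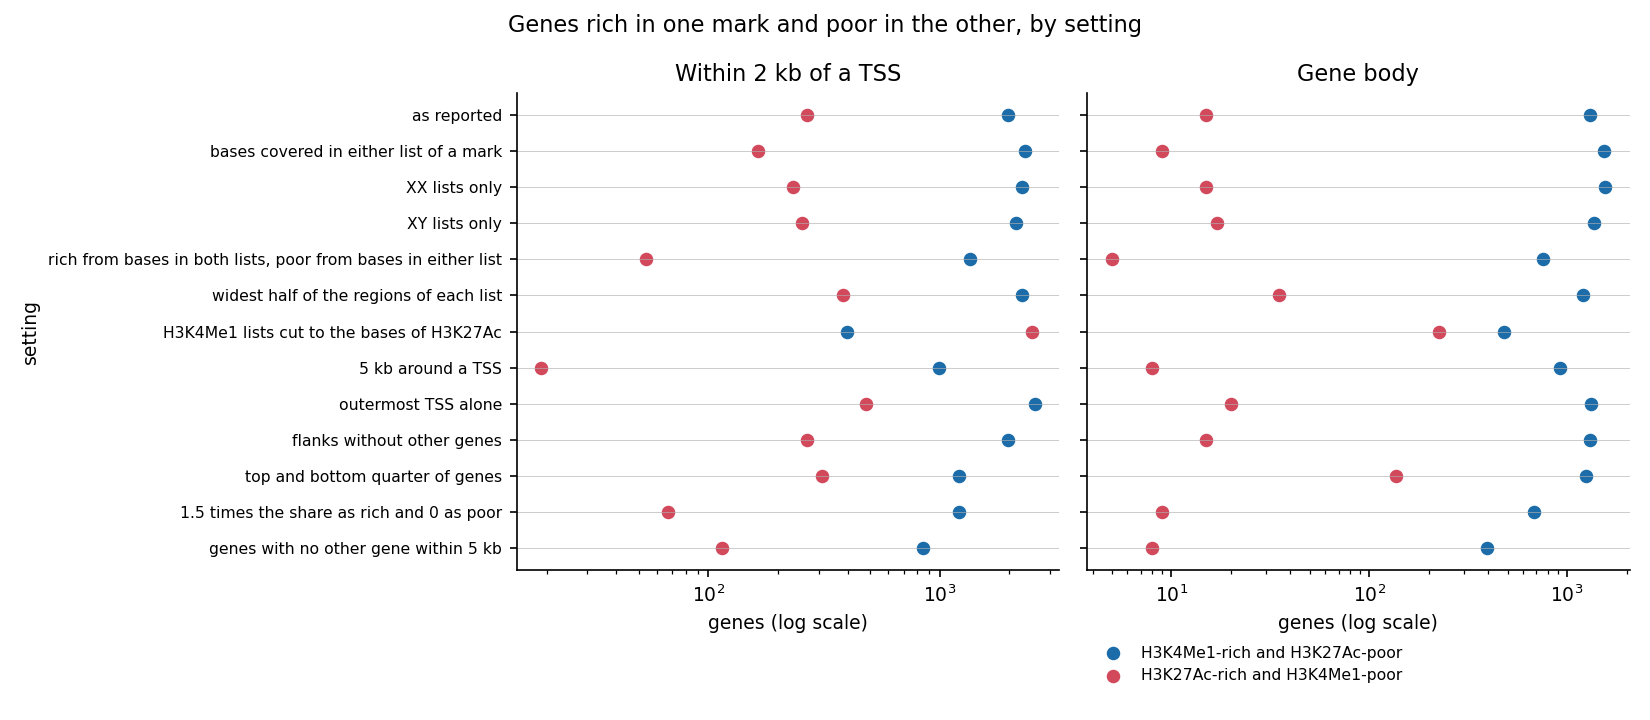
Genes called H3K4Me1-only (blue) and H3K27Ac-only (red) under each processing setting, at starts (left) and in bodies (right), on a log axis. H3K4Me1-only genes are the more numerous under every setting shown except the one with shortened H3K4Me1 lists at starts, with 398 against 2510.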

How the data were processed

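Chromatin of XX and XY mouse ES cells was immunoprecipitated with antibodies against H3K4Me1, H3K27Ac and H3K27Me3 and sequenced as single reads. Per their methods, the authors aligned reads to mm9 with Bowtie2 v2.1.0 and used Bedtools for enrichment. Bowtie, deepTools and mm9 stand in the submitters' processing notes. The deposited lists hold region coordinates alone (other values are absent), on a grid of 200 bp. Not given in the sources used here are the region caller, its threshold, the use of IgG and input, and the way the lists join the lines of each sex. A shallower library or stricter threshold gives a shorter list, and read depth is unknown.

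Genes and TSSs came from GENCODE M1 on NCBIM37, the mm9 assembly. Covered bases per zone were computed in Python 3.11.15 with NumPy 2.4.6 and pandas 2.3.3, and plotted with Matplotlib 3.10.9. They equalled those of Bedtools 2.31.1 for all 21418 genes in each of 6 lists. Zones under 1000 bp were left out. On simulated data of 224 genes, 95 of 95 planted starts were called, with 0 wrong calls. Named genes were, per zone and direction, the 5 (8 for the joined zones) with the largest difference in cover among genes called also from XX lists and from XY lists alone, at most 1 within 150 kb, unnamed gene models passed over, plus marker lists and up to 5 called members of other lists. Nr0b1 (X-linked) and Sox1 were not matched. Some named genes and a sequence are not reported here. Sequences come from NCBIM37. The comparison, gene lists and rules were chosen with earlier results of these data known. Alternatives were another rule for shared bases, each sex alone, other region widths, windows, TSSs, flanks, thresholds and isolated genes.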

Additional observations from a re-analysis of the deposited data

How the results depend on the processing

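The lists hold no depth or score and each mark has 1 list per sex, so neither counting error nor the spread between lines could be given, and gene counts can move with the unknown threshold of each list. No paired analysis was possible because the deposited lists combine the lines of a sex and no test was made. Of 120 counts of genes under the alternatives, 57 lay within 1.5 times the value reported and 63 did not. Of 36 ratios of mean cover, 15 moved by less than the SD between the XX and the XY value, 20 moved by more, and 1 turned. The 57 and the 15 include values that a setting could not change. Leaving other genes out of the flanks does not touch starts or bodies. Taking the outermost TSS alone does not touch the flanks or the joined zones. In the pairs of counts below, H3K4Me1-only genes come first and H3K27Ac-only genes second, and ratios are H3K4Me1 over H3K27Ac. The counts and ratios by zone that are not printed moved by less than these limits. Hox counts, whose alternatives were chosen after seeing the data, ran from 5 to 34 H3K4Me1-only starts (24 reported) and from 0 to 35 over the joined zones (34 reported), with 5 of each among genes with no other gene within 5 kb and 16 over the joined zones with the top and bottom 25% of genes.

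The H3K4Me1 lists cut to as many bases as the H3K27Ac lists gave 398 and 2510 genes at starts with a ratio of 0.544, 479 and 225 in bodies (1.49), 145 and 539 upstream (1.01), 171 and 561 downstream (1.03), and 14 and 139 over the joined zones. By construction this setting removes the narrower H3K4Me1 regions. Another setting took rich from bases in both lists and poor from the bases of both lists joined. It gave 54 H3K27Ac-only starts, 752 and 5 in bodies, 315 and 9 upstream, 343 and 17 downstream, and 53 and 0 over the joined zones. With bases of either list, 164 H3K27Ac-only starts and 9 such bodies remained, and the ratios were 1.49, 2.48, 2.03 and 2.05 for starts, bodies, upstream and downstream. The XX lists gave ratios of 1.5 at starts and 2.68 in bodies and 3 H3K27Ac-only loci, and the XY lists ratios of 2.58 in bodies, 2.02 upstream and 2.03 downstream. The widest 50% of the regions gave ratios of 1.58 at starts and 2.74 in bodies, 35 H3K27Ac-only bodies, 1101 and 38 genes upstream, 1298 H3K4Me1-only genes downstream, and 406 and 2 over the joined zones.

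With 5 kb around a TSS, 994 and 19 starts, 8 H3K27Ac-only bodies and ratios of 1.81 and 3.00 were found, and with the outermost TSS alone 482 H3K27Ac-only starts and ratios of 1.26 and 2.76. Flanks without other genes gave 1507 and 84 upstream, 1684 and 108 downstream, and 596 and 21 over the joined zones. Rich and poor taken as the top and bottom 25% of genes gave 1217 H3K4Me1-only starts, 137 H3K27Ac-only bodies, 189 and 76 upstream, 187 and 89 downstream, and 23 and 7 over the joined zones. With 1.5 times the share as rich and 0 as poor there were 1206 and 67 starts, 677 and 9 bodies, 279 and 3 upstream, 290 and 7 downstream, and 39 and 0 over the joined zones. Genes with no other gene within 5 kb, which are fewer, gave 849 and 115 starts, 396 and 8 bodies, 211 H3K4Me1-only genes upstream, 260 downstream and 72 over the joined zones, with ratios of 1.92 upstream and 2.03 downstream. The cause of the changes under the alternatives was not tested.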

Other observations

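Some starts were H3K4Me1-only in one sex and rich in H3K27Ac in the other. Of the 2269 starts that were H3K4Me1-only in the XX lists, 167 were rich in H3K27Ac in the XY list. Of the 2137 that were H3K4Me1-only in the XY lists, 136 were rich in H3K27Ac in the XX list. H3K4Me1 was rich in both sexes at 159 of the former and 129 of the latter. Those starts were thus rich in both marks in the sex with H3K27Ac, and not H3K27Ac-only. Crip1 (chr12:114390223-114392088), a LIM-domain protein, had H3K4Me1 and H3K27Me3 at 100% in each list, and H3K27Ac at 0% in XX and 100% in XY cells. Arl4d (chr11:101526855-101529146), a small GTPase, had H3K4Me1 at 100% in each, H3K27Ac at 0% in XX and 100% in XY cells, and H3K27Me3 at 100% in XX and 0% in XY cells. Cdh3 had the reverse order, with H3K27Ac at 100% in XX and 0% in XY cells over H3K4Me1 and H3K27Me3 of 100% in each. In bodies the counts were 88 and 64, upstream 3 and 6, and downstream 7 and 5. With 1 list per sex these differences could not be tested.

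In 6 genes 2 zones were H3K27Ac-only. Crlf2 and Csf2ra, cytokine receptor genes chosen after their values were seen, were so at the start and in the body. Crlf2 (chromosome 5) had H3K27Ac over 100% of the start and body in each list, with H3K4Me1 over 39.7% of the start in the XX list and 0% elsewhere in these zones. Csf2ra (chromosome 19) had H3K27Ac over 82.0% of the start in XX and 67.0% in XY cells and over 100% of the body in each, with H3K4Me1 over 24.6% of the body in the XY list alone.

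The share of H3K4Me1-only starts ran from 6.08% on chromosome 16 to 13.2% on chromosome 15, and that of H3K27Ac-only starts from 0.251% on chromosome 15 to 3.70% on chromosome 13. In 13 genes a zone had one state and another zone the reverse. Fam107a was H3K4Me1-only at its start (79.8% and 88.7%, with H3K27Ac at 23.2% in the XX list) and H3K27Ac-only downstream.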
